A study of Mus musculus with 6 samples.

Results

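The genes of the VEGF system in spleen endothelium were described here: the ligand genes Vegfa, Vegfb, Vegfc and Pgf, the receptor tyrosine kinase genes Kdr, Flt1 and Flt4, and the neuropilin genes Nrp1 and Nrp2. The 9 members were chosen by gene symbol, not by their values, from a deposited table of 23337 genes, and all 9 passed the filter that left 11035 genes for testing. The RNA came from endothelial cells sorted as CD31-positive and CD45-negative from collagenase-digested mouse spleens, in a study of how stabilin-1 (Clever-1, the product of Stab1) bears on contacts between spleen vessels and lymphocytes. There were 3 libraries from wild-type mice (WT 1, WT 3 and WT 4) and 3 from Stab1-/- mice (KO 2, KO 3 and KO 4), all labelled C57BL/6 and blood endothelial cells, numbered as in the deposited columns. Where 3 values are given for a genotype, they are in the order WT 1, WT 3, WT 4 or KO 2, KO 3, KO 4. The age and sex of the mice, whether the groups were littermates and whether each library came from its own animal are not given in the sources used here, so every p-value here reflects the variation among the libraries, which may be technical. Levels are RPKM (reads per kilobase of transcript, scaled to the depth of the library), given per library or as mean ± SD (n = 3 per group).

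VEGF ligands are secreted dimers that bind 3 related receptor tyrosine kinases on endothelium. VEGFR2, encoded by Kdr, carries most of the mitogenic and permeability signal of VEGF-A. VEGFR1, encoded by Flt1, binds VEGF-A, VEGF-B and PlGF with high affinity but signals weakly, and acts in part as a decoy, while VEGFR3, encoded by Flt4, is the receptor of VEGF-C and is known from lymphatic and sinusoidal vessels. Neuropilins are co-receptors with short cytoplasmic tails that bind both VEGF ligands and class 3 semaphorins, and endothelium uses the pathway for survival, sprouting and upkeep of fenestrated vessels.

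The libraries held 40415795 to 51674986 reads counted to genes, recovered from the deposited values. Stab1, the targeted gene, measured 21.6, 43.6 and 31.4 RPKM across wild type, and across knockout 2.32, 2.62 and 2.49, a log2 fold change of -3.40 ± 0.22 (SE; adjusted p = 7.15e-05 in limma). Endothelial markers were abundant, with Cldn5, a tight junction gene, the highest at 1040 to 1110 RPKM in wild type and 1240 to 1370 in knockout, and the 12 markers summed to 3720 to 4340 RPKM in wild type and 4180 to 4760 in knockout. Lymphatic markers were low (Lyve1 at most 2.12 and Pdpn at most 0.99 RPKM, Ccl21a listed at 0 in every library) except Prox1, at 16.9 to 33.8 RPKM in wild type and 21.1 to 26.3 in knockout. Mmrn1, of the same list, was at 1.2 to 2.43 RPKM in wild type and 0.623 to 0.925 in knockout. Its log2 fold change was -0.76 (adjusted p = 0.181 in limma). Ptprc, the gene of CD45, was at 0.11 RPKM or less, and the macrophage gene Csf1r at 0.118 or less. The 9 macrophage markers summed to 183 to 221 RPKM in wild type and 192 to 236 in knockout. Most of that sum was Vcam1, which endothelium and stroma also express. Of the 5 tested, 4 had a negative log2 fold change (median -0.3). In limma 0 were called, where 1.94% of all tested genes were. Lyz2 measured 14.7, 18.8 and 7.25 RPKM across wild type, and across knockout 5.75, 7.37 and 8.5. Its log2 fold change was -0.78 (adjusted p = 0.25 in limma). Tyrobp was at 3.21 to 4.28 RPKM in wild type and 1.67 to 2.88 in knockout (-0.51, adjusted p = 0.295 in limma). Summed stromal markers were higher in WT 1 than in the other wild-type libraries. The 12 reticular and fibroblast markers summed to 354 RPKM there against 163 to 173 in WT 3 and WT 4. The 9 pericyte and smooth muscle markers summed to 578 against 341 to 376. Acta2 (320 in WT 1, 176 and 160 in WT 3 and WT 4) and Dcn (96.1, against 3.68 and 33.1) were large parts of these sums. Not all markers followed: Pdgfrb (1.98, against 4.69 and 2.75), Mcam (39.6, against 62.0 and 63.4) and Notch3 were lowest in WT 1. In knockout the reticular and pericyte sums were 113 to 166 and 347 to 463 RPKM. From each list 1 gene was called lower in limma, of 11 and 9 tested, where 1.27% of all tested genes were called lower. These were the chemokine gene Cxcl13 (adjusted p = 0.00159 in limma) and the pericyte gene Rgs5 (adjusted p = 0.0194). Summed leukocyte markers reached at most 7 RPKM, mesothelial markers at most 14.1, and erythroid markers 19 to 84.9 in wild type and 9.94 to 56.3 in knockout. WT 1 was the lowest wild-type library for 7 of the 9 members. The part of stromal RNA in those values was not tested, and in bulk RNA fewer cells of a type and less RNA per cell cannot be told apart.

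In wild type Kdr was the highest member at 116 ± 54.9 RPKM, inside the top 6.36% of tested genes by mean level over the 6 libraries. Nrp1 (54.8 ± 8.54 RPKM), Flt4 (53.5 ± 24.1) and Flt1 (46.7 ± 9.16) followed, and their wild-type libraries overlapped each other. The ligand genes Vegfc (29 ± 4.13 RPKM), Vegfb (25.4 ± 4.29) and Vegfa (20.7 ± 0.859) formed the next step, with each overlapping its neighbour. Nrp2 (3.48 ± 0.626 RPKM) and Pgf (2.9 ± 0.653) were far lower and overlapped, Pgf with only 149 to 284 reads per library. In knockout the order of the means differed in 2 places: Flt4 (66.9 ± 9.54 RPKM) stood above Nrp1 (35.9 ± 8.78) without overlap, and Vegfb (24.8 ± 1.57) above Vegfc (21.8 ± 2.73) with overlap. Every library of Vegfa lay below all libraries of Vegfc in both genotypes.

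**Figure D1:**
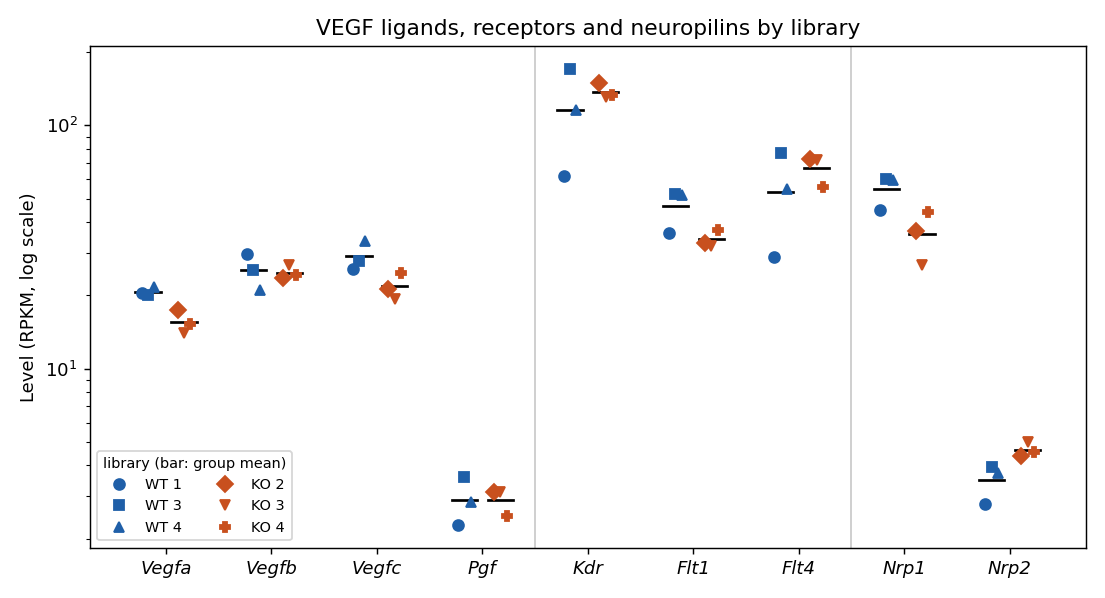
Levels of the 9 genes in each library, in RPKM on a log axis, with wild-type libraries in blue, knockout libraries in orange and a bar at each group mean. Vegfa, Vegfc and Nrp1 are lower and Nrp2 is higher in every knockout library than in every wild-type library, and WT 1 lies far below WT 3 for Kdr (61.7 against 171) and Flt4 (28.7 against 76.8).

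Knockout was then set against wild type in a limma fit across all tested genes, with p-values adjusted over all of them by the Benjamini-Hochberg method. None of the 9 members passed an adjusted p of 0.05 (0 of 9, where 1.94% of all tested genes passed, 0.671% higher and 1.27% lower in knockout). An unadjusted limma p under 0.05 was reached by 4, against 15.7% of all tested genes, and all 4 were lower in knockout, against 9.57%. In voom on recovered reads 0 of the 9 passed as well. The groups did not overlap for 4 of the 9, where 20.3% of all tested genes did not overlap. Of these 4, 3 were lower in knockout (background 9.57%) and 1 higher (10.7%). The members' median log2 fold change (knockout minus wild type, of log2(RPKM + 0.5) values, so that changes of weakly expressed genes are understated) was -0.02, against 0.03 over all tested genes. Their median absolute log2 fold change was 0.40, against 0.16 over all tested genes, and without WT 1 it was 0.24, against 0.16. With trends in GC content and length taken out it was 0.26, against 0.14. For 6 of the 9, all but Kdr, Flt4 and Nrp1, the 95% interval of the log2 fold change lay within a 2-fold change in either direction.

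**Figure D2:**
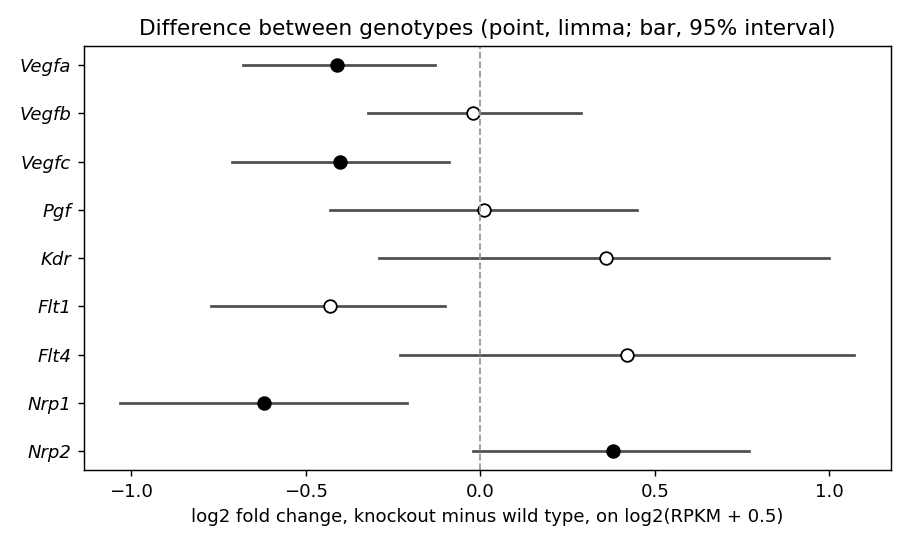
Log2 fold change of each gene, knockout minus wild type, with its unadjusted 95% interval from limma; filled points mark genes whose groups do not overlap. The intervals of Vegfa, Vegfc, Flt1 and Nrp1 lie below 0, that of Nrp2 reaches -0.02, and none of the 9 passes after adjustment over all genes.

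Among the ligands, Vegfa and Vegfc were lower in all 3 knockout libraries while the knockout values of Vegfb and Pgf lay within the wild-type range. Vegfa (gene ID 22339, chromosome 17, 46016993 to 46032377, GRCm38) encodes VEGF-A, the main growth factor of blood vessels. It measured 20.5, 20.0 and 21.6 RPKM across wild type, and across knockout 17.4, 14.0 and 15.2. Every knockout library lay below every wild-type library, and the wild-type libraries differed by only 1.08-fold among themselves. The log2 fold change was -0.41 ± 0.12 (SE), a mean 25% lower, with a limma p of 0.00782 and an adjusted p of 0.151.

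Vegfc (gene ID 22341, chromosome 8, 54077532 to 54186454) encodes VEGF-C, the ligand of VEGFR3 and, once processed, of VEGFR2. It measured 25.6, 27.8 and 33.6 RPKM across wild type, and across knockout 21.3, 19.4 and 24.8. The groups did not overlap, but KO 4 and WT 1 were within 1 RPKM of each other. The log2 fold change was -0.40 ± 0.14 (SE), with a limma p of 0.0169 and an adjusted p of 0.21. With GC and length trends taken out, KO 4 (4.62 on the log2 scale) lay above WT 1 (4.55).

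Vegfb (gene ID 22340, chromosome 19, 6982472 to 6987651), which encodes a ligand of VEGFR1 linked to fatty acid handling, measured 29.6, 25.4 and 21.1 RPKM across wild type, and across knockout 23.7, 26.6 and 24.2. All knockout values lay inside the wild-type range, with a log2 fold change of -0.02 (95% interval -0.32 to 0.29, adjusted p = 0.957 in limma). Pgf (gene ID 18654, chromosome 12, 85166637 to 85177785), the gene of placental growth factor, another ligand of VEGFR1, measured 2.28, 3.58 and 2.83 RPKM across wild type, and across knockout 3.11, 3.10 and 2.48. Its knockout values also lay inside the wild-type range (log2 fold change 0.01, 95% interval -0.43 to 0.45, adjusted p = 0.981). Adding the 4 ligand genes gave 78.0, 76.7 and 79.1 RPKM across wild type, and across knockout 65.5, 63.1 and 66.7. The summed ligand level thus varied little within either genotype and was 0.835 times as high in knockout, a description without a test. The difference between Vegfc and Vegfa on the log2 scale was 0.47 ± 0.15 in wild type and 0.48 ± 0.20 in knockout, so both genes were lower by like amounts.

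Platelets carry VEGF ligands, and megakaryocyte and platelet markers were measured in the same libraries. All 10 were tested, and all had a negative log2 fold change (median -0.85, against 0.03 over all tested genes). In limma 1, the platelet chemokine gene Pf4, was called lower, where 1.27% of all tested genes were. Their summed level came to 132, 253 and 91.8 RPKM across wild type and to 58.7 to 77.3 in knockout, without overlap. The part of platelet RNA in the lower Vegfa and Vegfc was not tested.

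Flt1, the decoy-like receptor gene, was lower in knockout by its mean, while Kdr and Flt4 were higher by theirs. Flt1 (gene ID 14254, chromosome 5, 147561604 to 147726438) measured 36.1, 52.2 and 51.8 RPKM across wild type, and across knockout 32.9, 31.9 and 37.3. WT 1 lay among the knockout libraries, and WT 3 and WT 4 stood above all of them. The log2 fold change was -0.43 ± 0.15 (SE), with a limma p of 0.0162 and an adjusted p of 0.206. Flt1 passed without WT 1 (log2 fold change -0.61, adjusted p = 0.0356) and when trends with GC content and length were taken out (-0.53, adjusted p = 0.0453), over a range of adjusted p from 0.00154 to 0.6 in 17 alternatives. Those settings called 1.52% and 1.97% of the genes they tested. With those trends removed the groups of Flt1 no longer overlapped, at 5.48 to 5.72 in wild type and 4.92 to 5.25 in knockout on the log2 scale.

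Kdr (gene ID 16542, chromosome 5, 75932827 to 75979072) measured 61.7, 171 and 116 RPKM across wild type, and across knockout 149, 131 and 133. All 3 knockout libraries lay inside the wild-type range, which spanned 2.78-fold, against 1.14-fold in knockout. The log2 fold change of 0.36 (95% interval -0.29 to 1.0, adjusted p = 0.569 in limma) rested on single wild-type libraries: it was -0.04 without WT 1 and 0.69 without WT 3. Flt4 (gene ID 14257, chromosome 11, 49609679 to 49652739) showed a like spread, with 28.7, 76.8 and 54.9 RPKM across wild type, and across knockout 72.9, 72.0 and 55.9. Its log2 fold change of 0.42 (95% interval -0.23 to 1.07, adjusted p = 0.5) went to 0.03 without WT 1 and to 0.73 without WT 3. Removing GC and length trends narrowed the wild-type range of Kdr from 1.47 to 1.1 and that of Flt4 from 1.4 to 0.85 on the log2 scale, with WT 1 still the lowest.

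Because Kdr and Flt1 bind the same ligand, their levels were compared within each library, where depth and the scaling of a library cancel. The Flt1 to Kdr ratio was 0.586, 0.305 and 0.445 across wild type, and across knockout 0.221, 0.244 and 0.281. Each knockout library had less Flt1 per Kdr than any wild-type library, though WT 3 and KO 4 were close. On the log2 scale the difference was -1.21 ± 0.47 in wild type and -2.0 ± 0.17 in knockout, and the shift of -0.79 stayed between -1.04 and -0.57 when any 1 library was left out. Flt1 made up 23.1 ± 5.59% of the summed RPKM of the 3 receptor genes in wild type and 14.3 ± 1.91% in knockout. Flt4, in contrast, followed Kdr closely across wild type, with a ratio of 0.466, 0.448 and 0.473. Across knockout the ratio of Flt4 to Kdr was 0.488, 0.552 and 0.422. On the log2 scale the SD of the Flt4 and Kdr difference was 0.04 in wild type. In knockout it was 0.19, no tighter than the 0.17 of Flt1 and Kdr. These pairs were set for comparison with earlier results of these data known, and the ratios carry no test.

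The sequences before the annotated starts of Kdr and Flt1 are shown because the balance of this pair differed between the genotypes (RefSeq promoter table, GRCm38.p6, minus strand, written 5′ to 3′, ending at the annotated start or before the first GENCODE exon). Both of these starts lie inside the gene spans given above, so the 2 stretches fall within the genes as annotated. Capitals mark the GC box GGGCGG on either strand (CCGCCC on the other) and the TATA box TATAAA.
Kdr, chr5:75978459-75978705: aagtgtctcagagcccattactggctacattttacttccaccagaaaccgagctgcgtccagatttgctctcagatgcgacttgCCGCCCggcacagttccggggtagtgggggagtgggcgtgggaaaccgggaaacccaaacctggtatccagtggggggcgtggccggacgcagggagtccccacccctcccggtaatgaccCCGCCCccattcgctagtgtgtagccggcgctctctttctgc
Flt1, chr5:147726012-147726261: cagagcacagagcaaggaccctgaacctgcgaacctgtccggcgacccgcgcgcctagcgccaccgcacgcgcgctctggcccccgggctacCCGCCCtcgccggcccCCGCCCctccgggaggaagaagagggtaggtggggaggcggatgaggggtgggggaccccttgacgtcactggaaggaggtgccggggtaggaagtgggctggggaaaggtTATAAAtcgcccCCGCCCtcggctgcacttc
The Kdr stretch holds 2 GC boxes and the Flt1 stretch 3, where 32.7% of all 32851 promoters of 250 bases hold at least 1. Flt1 alone of the 9 genes holds TATAAA (12.4% of all promoters, either strand). Neither stretch holds the hypoxia response core in the form ACGTG (16.6% of all promoters) or the ETS core in the form CGGAAG (13.6%). This says only that these letters are not in these windows, and other forms of both cores were not searched. The windows of all 9 genes were GC-rich, at 59.2% to 76.4% GC against a median of 52.4% over all promoters.

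Nrp1 was lower and Nrp2 higher in all 3 knockout libraries, and neither passed the adjusted test. Nrp1 (gene ID 18186, chromosome 8, 128358591 to 128505476) encodes the co-receptor that binds VEGF-A and semaphorin 3A. It measured 45.0, 60.0 and 59.5 RPKM across wild type, and across knockout 36.8, 26.7 and 44.2. The groups did not overlap, though KO 4 came within 1 RPKM of WT 1. The log2 fold change of -0.62 ± 0.18 (SE) was the farthest from 0 of the 9 members, with a limma p of 0.00716 and an adjusted p of 0.145. Without KO 4 it was -0.78, and without KO 3 -0.43. With GC and length trends taken out it was -0.42, and the groups then overlapped (5.35 to 5.92 in wild type and 4.99 to 5.41 in knockout on the log2 scale).

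Nrp2 (gene ID 18187, chromosome 1, 62703317 to 62818692), the co-receptor of VEGF-C and semaphorin 3F that is known from veins and lymphatics, measured 2.78, 3.96 and 3.71 RPKM across wild type. Across knockout it measured 4.36, 4.98 and 4.54, above every wild-type library. The log2 fold change was 0.38 ± 0.18 (SE), with a limma p of 0.0594 and an adjusted p of 0.334. Its 940 to 2058 reads per library leave little counting error beside the spread between libraries.

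Within each library Nrp2 stood at 0.0617, 0.066 and 0.0624 of the Nrp1 level across wild type, and across knockout at 0.119, 0.187 and 0.103. The 3 wild-type libraries were nearly equal and all knockout libraries were higher. On the log2 scale the difference of Nrp2 and Nrp1 went from -3.80 ± 0.04 to -2.80 ± 0.44, a shift of 1.0 that ranged from 0.75 to 1.17 with any 1 library left out. Removing GC and length trends brought the shift to 0.68. Across wild type Nrp2 was then at 2.01, 2.01 and 2.1 and Nrp1 at 5.35, 5.92 and 5.76 on the log2 scale. The difference was thus no longer nearly equal across wild type, though every knockout library stayed higher. Nrp2 contributed 5.96 ± 0.206% of the summed neuropilin RPKM in wild type and 11.9 ± 3.4% in knockout, and that sum was 47.7 to 64.0 RPKM in wild type and 31.7 to 48.7 in knockout.

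**Figure D3:**
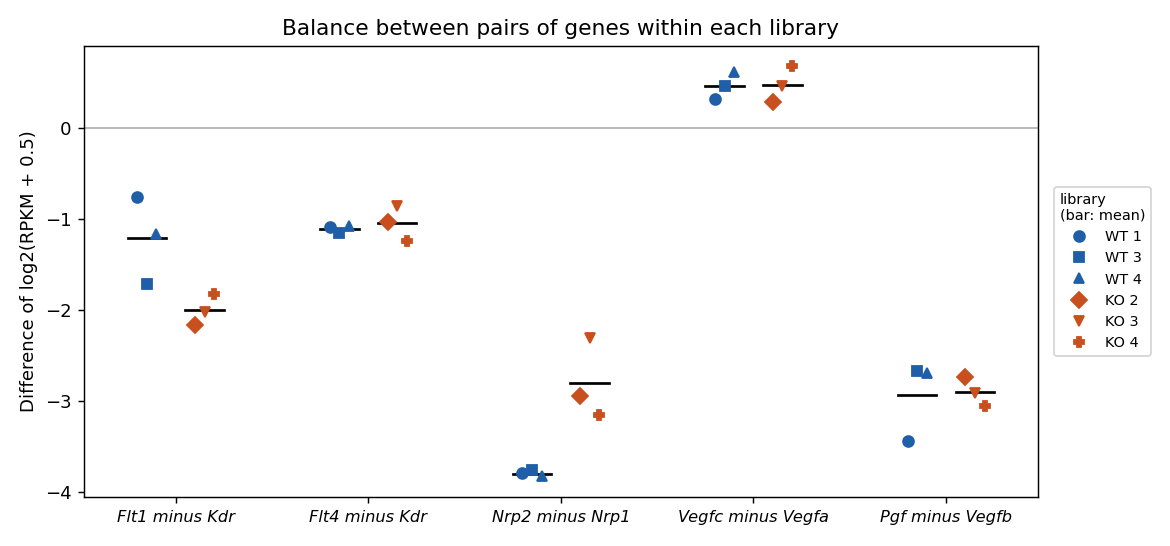
Difference of log2(RPKM + 0.5) between the genes of 5 pairs within each library, wild type in blue and knockout in orange, with bars at the group means. Flt1 minus Kdr is lower and Nrp2 minus Nrp1 higher in every knockout library than in every wild-type library, and the other 3 pairs overlap.

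The stretches before the annotated starts of Nrp1 and Nrp2 are shown for the same reason as those of the receptors (same table and build, plus strand, 5′ to 3′, the same capitals). The Nrp1 stretch lies inside the gene span given above, and the Nrp2 stretch lies before that of Nrp2.
Nrp1, chr8:128358823-128359072: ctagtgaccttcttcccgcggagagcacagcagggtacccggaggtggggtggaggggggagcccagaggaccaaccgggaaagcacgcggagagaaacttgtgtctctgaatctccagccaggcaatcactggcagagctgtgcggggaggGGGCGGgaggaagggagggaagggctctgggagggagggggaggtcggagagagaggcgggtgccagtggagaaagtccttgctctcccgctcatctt
Nrp2, chr1:62703067-62703284: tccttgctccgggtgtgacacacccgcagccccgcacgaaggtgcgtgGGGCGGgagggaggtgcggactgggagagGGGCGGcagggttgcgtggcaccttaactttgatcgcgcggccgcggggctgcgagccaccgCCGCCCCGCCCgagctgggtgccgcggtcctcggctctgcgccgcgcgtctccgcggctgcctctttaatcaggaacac
Nrp1 holds 1 GC box and Nrp2 5 in the full window of 250 bases, of which 4 lie in the 218 bases printed. The KLF core CACCC, found in either strand of 52% of all promoters, occurs 2 times in the Nrp1 window and 3 times in that of Nrp2, against 1 time each in those of Kdr and Flt1. Neither neuropilin window holds the hypoxia response core, the ETS core or the TATA box.

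Further genes of the pathway were read from lists set by role. Over all tested genes 1.94% were called in limma and 15.7% had an unadjusted p under 0.05, the background for every list below. Of 8 tested genes for other VEGF ligands and their processing, 0 were called in limma (2 at an unadjusted p under 0.05; median log2 fold change 0.01). Figf, the VEGF-D gene, stayed at 0.971 RPKM or less and was not tested. Ccbe1, a cofactor of VEGF-C processing, was at 5.88 ± 1.02 RPKM in wild type against 3.83 ± 0.953 in knockout, a log2 fold change of -0.57 (adjusted p = 0.225), and the groups overlapped. The other 2 genes of smallest p were Ctgf, which encodes a matrix protein that binds VEGF (log2 fold change 0.41, adjusted p = 0.306), and the protease gene Mmp2 (-0.24, adjusted p = 0.526). None of 20 tested receptor partners and trafficking genes was called (0 at an unadjusted limma p under 0.05, median -0.03), and the smallest p belonged to Rab5a, a GTPase gene of early endosomes (log2 fold change -0.49, adjusted p = 0.321), with Epn2 (0.31, 0.383) and Usp8 (-0.31, 0.39) next.

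Of 44 tested genes of VEGF receptor signalling, 1 was called higher and 0 lower (background 1.94% called, median log2 fold change 0.08). An unadjusted limma p under 0.05 was reached by 9 of the 44, against 15.7% of all tested genes. The called gene was Nos3, which encodes the endothelial nitric oxide synthase that acts below VEGFR2. It measured 59.5, 84.5 and 91.9 RPKM across wild type, and across knockout 198, 178 and 138. The knockout libraries all stood above the wild-type libraries, with a log2 fold change of 1.13 ± 0.18 (SE) and an adjusted p of 0.0138 in limma. The call was lost without KO 2 (adjusted p = 0.0552), without KO 3 (0.07) and when weakly expressed genes were kept (0.0936).

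Genes that VEGF is known to induce gave 0 calls of 28 in limma (3 at an unadjusted p under 0.05, median 0.07). The 3 of smallest p were Nid2, a basement membrane gene, from 10.2 ± 3.49 to 17.5 ± 1.89 RPKM (log2 fold change 0.80, adjusted p = 0.146), and the early response genes Egr1 (0.44, 0.191) and Egr2 (0.34, 0.316). Egr1 and Egr2 are also known to respond to tissue dissociation, and of 14 dissociation and early response genes 12 had a positive log2 fold change (median 0.20), with 1, the chaperone gene Hspa8, called higher (adjusted p = 0.0488). Their sum was 4920 to 5360 RPKM in wild type and 5460 to 6190 in knockout, and its part in the values of these genes was not tested.

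Of 19 tested hypoxia genes 0 were called in limma (3 at an unadjusted p under 0.05, 11 with a positive and 8 with a negative log2 fold change, median 0.13), and 4 did not overlap between the groups (background 20.3%). The 3 of smallest p were all higher by their means. Ndrg1, a gene induced by hypoxia, was at 191 ± 10.9 RPKM in wild type against 258 ± 25.3 in knockout, a log2 fold change of 0.43 (adjusted p = 0.0631). The others were the glucose transporter gene Slc2a1 (log2 fold change 0.45, adjusted p = 0.165) and Hif1an, which encodes an inhibitor of HIF-1 (0.41, 0.307).

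Neuropilins also bind class 3 semaphorins, and of 17 tested semaphorin and plexin genes 0 were called in limma (2 at an unadjusted p under 0.05, median 0.13). Sema3a, whose product binds neuropilin-1, measured 43.2, 39.1 and 41.0 RPKM across wild type, and across knockout 22.5, 17.3 and 31.7. The groups did not overlap (log2 fold change -0.82 ± 0.19 SE, adjusted p = 0.0637). Sema3d was at 107 ± 29.3 and 66.1 ± 11 RPKM (-0.66, adjusted p = 0.145) and Sema6b at 22.7 ± 8.6 and 30.5 ± 4.72 (0.47, adjusted p = 0.362). Sema3a and Nrp1 had their lowest value in the same library, KO 3, and their highest knockout value in KO 4. That knockout order was not particular to them, as Rab5a had it too (30.0, 24.6 and 44.9 RPKM). Across wild type Sema3a and Nrp1 differed: WT 1 was the highest library for Sema3a and the lowest for Nrp1 (45.0, against 60.0 and 59.5 RPKM).

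Transcription factors that act on VEGF receptor genes gave 0 calls of 24 in limma (3 at an unadjusted p under 0.05, median -0.01), and 5 of the 24 did not overlap between the groups (background 20.3%). Of the 3 genes of smallest p, Mef2a was at 34.3 ± 5.27 RPKM in wild type against 21.4 ± 3.75 in knockout, a log2 fold change of -0.67 (adjusted p = 0.0674), Klf4 at 37.1 ± 4.75 and 29 ± 1.5 (-0.34, 0.206) and Sox17 at 53.5 ± 2.65 and 43.7 ± 4.4 (-0.29, 0.231).

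Genes whose profile over the 6 libraries was nearest to that of each member were found by the root mean square difference of log2 values after each gene's own mean was taken off. For Nrp1 the nearest was Cd36, a scavenger receptor and fatty acid carrier gene, at a difference of 0.0714, with 915, 1220 and 1250 RPKM across wild type, and across knockout 762, 621 and 991. The Flt1 profile was nearest to those of Sbf2 (0.0547) and of the collagen-binding integrin gene Itga1 (0.0555), the latter at 34.1, 50.6 and 44.3 and at 29.6, 29.4 and 34.4 RPKM. For Vegfa it was Tcf7l2, a Wnt pathway transcription factor gene (0.0425), and for Vegfc Ttc3 (0.0338). The Kdr profile lay nearest to 6430548M08Rik (0.0488) and Ikbkap (0.0776), that of Flt4 to Pcnxl3 (0.0437) and Cul7 (0.0445), and all 4 of these were lowest in WT 1. Pgf was nearest to Mmp28 (0.0298), Vegfb to Usf2 (0.0363) and Nrp2 to Slc25a44 (0.03). These likenesses, over 6 libraries and among 11035 tested genes, are descriptions.

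The members lie on 7 chromosomes, with Kdr and Flt1 both on chromosome 5 and Vegfc and Nrp1 both on chromosome 8. Called genes lay within 1 Mb of 3 of them: Rps6kl1 at 15360 bases from Pgf, Zfp62 at 0.391 Mb from Flt4 and Gpha2 at 0.755 Mb from Vegfb. The share of all tested genes with a called gene that near is not given here, so this count is a description only. The library kit does not mark strand, and RefSeq places other, mostly predicted, genes over parts of 5 members (Gm33153 on Vegfc, Gm32727 on Kdr, Gm35383 on Flt1, Mir1903 and Gm32643 on Nrp1, Gm29083 and 4930487H11Rik on Nrp2). These are overlaps of whole gene spans. Whether exons overlap, where reads could not be told apart by strand, was not examined. Gene-level RPKM also cannot separate isoforms, such as the soluble and membrane forms of Flt1 and the Nrp1 and Nrp2 forms, or the heparin-binding variants of Vegfa.

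In the authors' deposited table Nrp1 had a log2 fold change of -0.63 (adjusted p = 0.157), Vegfa of -0.42 (0.14), Flt1 of -0.44 (0.217), Vegfc of -0.41 (0.237) and Nrp2 of 0.42 (0.264). In the authors' deposited table Kdr (0.35, adjusted p = 0.596), Flt4 (0.42, 0.527), Vegfb (-0.01, 0.975) and Pgf (0.01, 0.986) did not pass either, and 1.57% of its 13742 genes had an adjusted p under 0.05.

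Over 17 alternative ways of processing, Vegfa (-0.51 to -0.34), Vegfc (-0.60 to -0.29), Flt1 (-0.61 to -0.34) and Nrp1 (-0.79 to -0.42) kept a negative log2 fold change, and Nrp2 a positive one in the 16 that tested it (0.24 to 0.47). Weighting the libraries by an estimated quality called 4 of the 9, Vegfa (adjusted p = 0.0131), Vegfc (0.00213), Flt1 (0.00154) and Nrp1 (0.00269), but also called 33.1% of all tested genes.

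**Figure D4:**
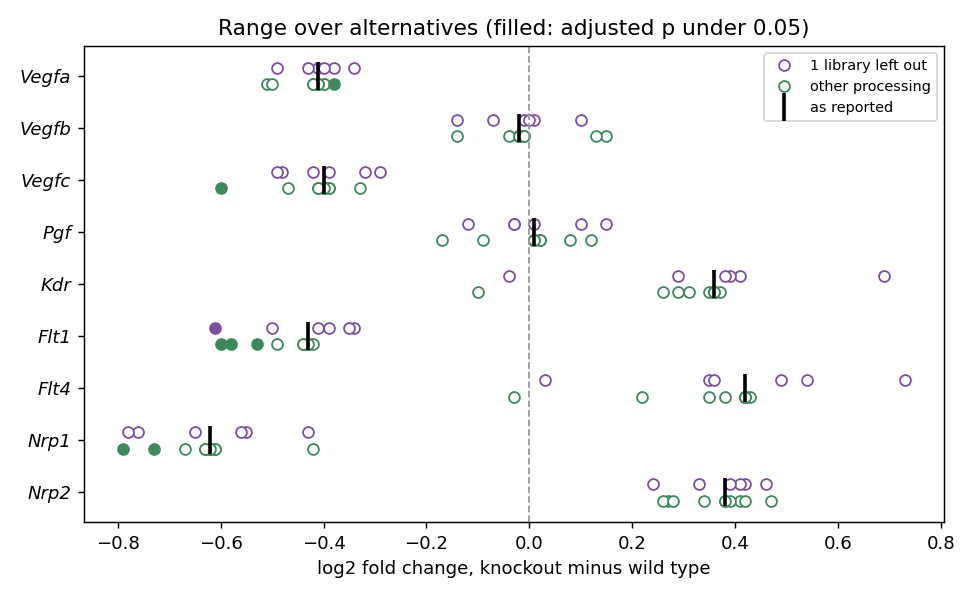
Log2 fold change of each gene as reported (black bar), with 1 library left out (purple) and under other processing (green); filled points have an adjusted p under 0.05. Flt1 passes without WT 1, and Kdr and Flt4 move to -0.04 and 0.03 without that library.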

How the data were processed

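RNA-seq libraries were made with a SMART-Seq low-input kit and Nextera XT, per the labels' protocols. The tools listed are STAR 2.5.2b, Subread, edgeR and limma, with the mm10 build and no order or settings, per the submitters' processing notes. The authors deposited normalized values with no unit in the header, read here as RPKM from the values. Each gene's values are whole multiples of 1 read's worth, with an implied transcript length that is a whole number of bases (tolerance 0.001) for 17666 of 17683 genes above 0. This gave reads per gene and depth. The authors also deposited a table of group means, log2 fold changes, p-values and adjusted p-values.

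Columns carry a genotype and a number other than the replicate number in the labels, and were used by genotype alone. The filter asked for 1 RPKM or more in 3 or more of 6 libraries and left 11035 genes. A limma model (version 3.58.1, R 4.3.3, variance trend) compared the genotypes on log2(RPKM + 0.5), with p adjusted over all genes and a threshold of 0.05. The fit was also run on simulated data, whose results are not given here, and no statement rests on them. Of 297 list entries, 291 matched by symbol and 5 by synonym. Genes named were the members and, per pathway list, those called or otherwise the 3 of smallest p, the highest and any called marker per marker list, and the 2 nearest profiles per member, of which a selection is printed; other names serve as marker checks, as Figf for a ligand below the filter, or as neighbours in the genome. The members and lists were chosen with earlier results of these data known. GC content and length came from the longest GENCODE M21 transcript (91% of tested genes), positions and promoters from RefSeq (GRCm38.p6). Figures used Python 3.11.15 with matplotlib 3.10.9. Alternatives were other pseudocounts (0.1 and 1), filters (none, or 5 RPKM), scalings, robust variances, library quality weights, voom on recovered reads, removal of GC and length trends by loess, each library left out and, added after seeing the data, a replicate block on column numbers that both genotypes carry.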

Additional observations from a re-analysis of the deposited data

How the results depend on the processing

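The number of genes called was 214 as reported, 77 with no filter on low values, 3653 with library quality weights and 56 to 418 with 1 library left out (93 with WT 4 left out, 83 with KO 2, 56 with KO 3 and 418 with KO 4). Of the 9 VEGF family members 0 were called as reported, 4 with quality weights, 1 (Flt1) with GC and length trends taken out and 0 to 1 with a library left out (Flt1 without WT 1). Over all pathway lists 1 gene was called as reported, 0 with no filter on low values, 2 with robust variances, 52 with quality weights and 0 to 7 with a library left out (0 without KO 2 or KO 3, 3 without WT 1, 7 without KO 4). The cause of these changes was not tested. The shift of Nrp2 minus Nrp1 went from 1.0 to 0.68 with GC and length trends taken out; the other 4 pairs moved by less than the spread between libraries in all 11 alternatives. Some directions turned. Vegfb, at -0.02 as reported, was at 0.15 with quality weights and between -0.14 and 0.1 with a library left out (0.1 without WT 1, 0.01 without KO 2). Pgf, at 0.01 as reported, was at -0.09 with GC and length trends taken out, -0.12 without WT 1 and -0.03 without KO 2 or KO 3. Kdr, at 0.36 as reported, ranged from -0.04 (without WT 1) to 0.69 (without WT 3). Mmp2, at -0.24 as reported, was at 0.04 with quality weights. Pgf and Nrp2 gave no value under the filter of 5 RPKM. The columns numbered 3 and 4 occur in both genotypes, although nothing in the labels says that a number marks a pair. A fit with a replicate block on these numbers, chosen after seeing the data, used only WT 3, WT 4, KO 3 and KO 4, and so leaves out WT 1 and KO 2 as well. It called 347 genes, 2 of the 9 members (Flt1 and Nrp1) and 7 pathway genes, and gave Vegfb 0.13, Pgf -0.17, Kdr -0.10 and Flt4 -0.03, with the directions of the other members kept. Deviations from the group means correlated at 0.19 over genes for both same-numbered combinations, and at -0.10 and -0.16 for the differently numbered ones. The members' median absolute log2 fold change was 0.28 in that fit, against 0.16 over all genes.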
